A study of Mus musculus with 15 samples.

Results

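The splicing regulators described here were 10 genes for RNA-binding proteins that set which exons neurons keep in their messenger RNAs. They were Ptbp1 and Ptbp2, Rbfox1, Rbfox2 and Rbfox3, Nova1 and Nova2, Khdrbs2 and Khdrbs3, and Srrm4. All 10 were taken by gene symbol, and all 10 were found both among the 21566 genes of the sorted E14 table and among the 10781 genes of the time series table. Cells were sorted by fluorescence from the midbrain of Pitx3-GFP mice. In this line, cells with an active Pitx3 gene, which encodes a transcription factor of midbrain dopamine neurons, carry green fluorescent protein (GFP). At embryonic day 14 (E14), 3 libraries of GFP+ cells were set against 3 libraries of GFP- cells. A separate time series held 3 libraries of GFP+ cells at E14, 3 at embryonic day 16 (E16) and 3 at birth (P0). All 15 samples in these 5 groups had the Pitx3-GFP genotype. Sample preparation drew on 3 litters, per the design text, but no label ties a replicate to its litter. The p-values therefore measure the spread between these libraries, part of which may be technical. Whether the GFP allele replaces a copy of Pitx3, and the sex of the animals, are not given by any source used here. The labels name dopamine neurons as the cell type of all samples, the GFP- ones included.

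These proteins bind short motifs in RNA that has not yet been spliced and favour or block the use of nearby exons. Ptbp1 blocks many neuronal exons in dividing and non-neuronal cells. In developing neurons the microRNA miR-124 lowers Ptbp1, and its close relative Ptbp2 takes over until later steps of maturation. The Rbfox, Nova and Khdrbs proteins promote or block neuronal exons according to where they bind, and Srrm4 promotes the inclusion of very short neuronal exons. The values here are reads per gene, and they do not measure the inclusion of any exon.

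The link between Ptbp1 and Ptbp2 runs through a pair of matching exons, shown here because leaving out either one shifts the reading frame. Ptbp1 is known to cause skipping of this exon in the RNA of Ptbp2 and in its own RNA, which sends the transcripts to nonsense-mediated decay. Each exon has 34 bases, which is not a multiple of 3, and GENCODE M21 (GRCm38) annotates transcripts that lack it as nonsense-mediated decay targets for both genes. Exon 9 of transcript Ptbp1-206 lies at chr10:79862014-79862047 on the plus strand and exon 10 of transcript Ptbp2-213 at chr3:119724612-119724645 on the minus strand. Read 5′ to 3′, with capitals for the 26 of 34 bases (76.5%) that both share, they are:
Ptbp1: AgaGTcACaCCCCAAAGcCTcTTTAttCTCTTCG
Ptbp2: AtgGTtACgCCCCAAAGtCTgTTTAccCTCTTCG

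The Rbfox proteins share a nearly identical RNA recognition motif, which binds the sequence GCAUG. A coding exon of 93 bases within this motif is shown for all 3 genes, since skipped forms of it are known to give Rbfox proteins that bind RNA poorly. In GENCODE M21 (GRCm38), 0 of the coding transcripts of Rbfox1, 2 of Rbfox2 and 1 of Rbfox3 skip it. The exon lies at chr16:7292185-7292277 (plus strand) in Rbfox1, at chr15:77105577-77105669 (minus strand) in Rbfox2 and at chr11:118502842-118502934 (minus strand) in Rbfox3. Capitals mark the 67 bases that are identical in all 3:
Rbfox1: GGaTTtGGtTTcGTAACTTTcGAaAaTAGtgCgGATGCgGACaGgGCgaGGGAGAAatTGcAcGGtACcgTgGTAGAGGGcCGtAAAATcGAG
Rbfox2: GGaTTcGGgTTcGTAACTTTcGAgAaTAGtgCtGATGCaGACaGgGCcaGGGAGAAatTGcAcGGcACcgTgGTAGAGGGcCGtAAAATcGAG
Rbfox3: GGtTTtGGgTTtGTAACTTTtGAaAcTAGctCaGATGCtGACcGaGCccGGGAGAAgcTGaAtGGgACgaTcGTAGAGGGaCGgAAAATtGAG
Rbfox1 and Rbfox2 matched at 86 of the 93 bases (92.5%), and Rbfox3 matched each of them at 69 (74.2%). No stretch of 50 bases in the protein-coding transcripts of any of the 10 genes occurred exactly in a transcript of another of the 10. Stretches found only in other transcripts, and matches that are not exact, were not examined.

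The sorted libraries held 17369191 to 22374153 reads, and the time series libraries 17910017 to 33386535 reads over a table that leaves out genes of low abundance. Every one of the 10 genes had between 170 and 18461 reads in each library. The median spread between replicates was 6.55% of the mean (coefficient of variation). Th, whose product limits the rate at which dopamine is made, averaged 8559 ± 850 normalized reads in GFP+ cells and 90.0 ± 17.7 in GFP- cells (SD, n = 3 each), so the GFP- libraries had little of this defining dopamine marker. Summed levels of 8 dividing cell markers were 1201 to 1367 normalized reads in GFP+ and 6271 to 7959 in GFP- libraries, and those of 8 radial glia and progenitor markers 6550 to 7811 in GFP+ and 65573 to 77745 in GFP- libraries. Sums of 8 pan-neuronal markers, Rbfox3 among them, were 181532 to 183885 in GFP+ and 126895 to 138649 in GFP- libraries, and sums of 6 erythroid markers 315 to 497 in GFP+ and 13694 to 14837 in GFP- libraries. Sums of the 10 dopamine neuron markers were 86252 to 97669 in GFP+ and 5054 to 6554 in GFP- libraries, and all 10 markers were called higher in GFP+ cells. For neurons with other transmitters the sums were 6545 to 7420 in GFP+ and 9171 to 9609 in GFP- libraries over 8 of 9 markers. Of these 8, 2 were called higher and 5 lower in GFP+ cells, with a median log2 fold change of -2.30. The sums for other non-neuronal cells were lower in GFP+ libraries as well. In GFP+ libraries they were 8487 to 8625 for 7 astrocyte markers, 941 to 1633 for 7 oligodendrocyte lineage markers, 37.2 to 68.5 for 7 microglia markers and 616 to 699 for 7 blood vessel markers. In GFP- libraries they were, in the same order of lists, 16458 to 18415, 3609 to 3899, 519 to 648 and 1368 to 1525. Of the astrocyte markers 6 were tested, and 1 was called higher and 3 lower in GFP+ cells. In the oligodendrocyte lineage, microglia and blood vessel lists, 5, 7 and 6 of 7 were called lower and 0 higher. None of these markers was at 0 in all libraries of a group. The part of these other cells in the differences given next was not tested, and in sorted bulk samples fewer cells of a type and less RNA per cell cannot be told apart.

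At E14 the largest differences between GFP+ and GFP- cells among the 10 genes were lower levels of Rbfox1, Khdrbs3, Ptbp1 and Nova1 in GFP+ cells, while Rbfox2 was the gene called higher. With limma on log2(normalized reads + 1), Benjamini-Hochberg adjustment over all 18260 genes tested and a threshold of 0.05, 6 of the 10 genes differed, 1 higher and 5 lower in GFP+ cells. Among all genes tested 30.7% were called, 12.7% higher and 18.0% lower. The GFP+ and GFP- libraries did not overlap for 9 of the 10 genes, Srrm4 being the exception, against 44.1% of all genes. These shares over all genes include genes down to a mean of 5 normalized reads. The 10 genes had higher means than 59.1% to 99.4% of the genes in GFP+ cells. Shares among genes of like abundance were not computed. With the library number as a replicate block, all 10 genes passed the threshold, and 46.4% of all genes did.

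**Figure D1:**
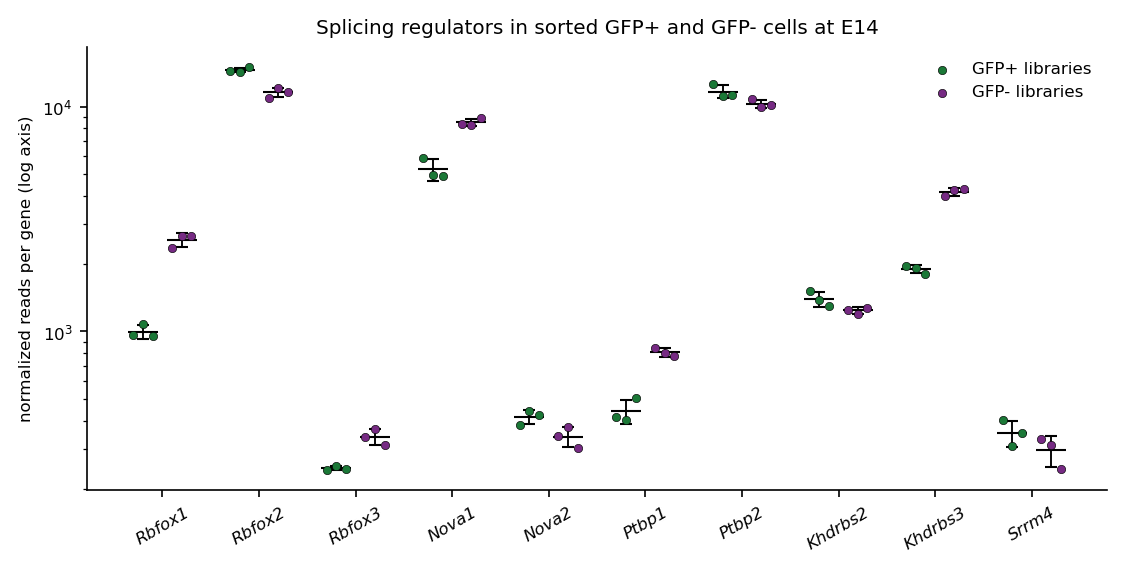
Normalized reads of each gene (log axis) in the 3 GFP+ and the 3 GFP- libraries at E14; points are libraries, and horizontal and vertical bars are the mean and SD. Rbfox1, Khdrbs3, Nova1 and Ptbp1 stand lower in GFP+ cells without overlap, and Srrm4 overlaps.

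Ptbp1 (chr10:79854427-79864771, plus strand), the repressor of neuronal exons, had 415, 405 and 505 normalized reads in the GFP+ libraries, against 848, 804 and 775 in the GFP- libraries. All GFP+ values lay below all GFP- values. Its level was 1.84-fold lower in GFP+ cells (log2 fold change -0.88, SE 0.11; limma adjusted p = 6.42e-05). Ptbp2 (chr3:119718742-119784466, minus strand), the neuronal relative, had 12537, 11155 and 11237 normalized reads in GFP+ and 10763, 9980 and 10113 in GFP- libraries. The groups did not overlap, yet the log2 fold change of 0.18 (SE 0.08) did not pass the threshold (limma adjusted p = 0.124), and it passed with the replicate block (limma adjusted p = 0.00902). Within each library, in normalized reads, Ptbp2 exceeded Ptbp1 by 30.2, 27.5 and 22.2 times in GFP+ cells. In GFP- cells it did so by 12.7, 12.4 and 13.1 times. This ratio was 2.08 times as high in GFP+ as in GFP- cells (exact permutation p = 0.1, two-sided, the smallest that 3 libraries against 3 allow). Per kilobase of exon, Ptbp1 made up 6.87% ± 1.02 of the sum of both in GFP+ and 13.2% ± 0.289 in GFP- cells (SD, n = 3 each).

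Of the 3 Rbfox genes, Rbfox1 and Rbfox3 were lower and Rbfox2 higher in GFP+ cells. Rbfox1 (chr16:5885355-7411526, plus strand), the family member mutated in some human neurodevelopmental disorders, had 963, 1082 and 951 normalized reads in GFP+ libraries, against 2348, 2655 and 2657 in GFP- libraries. It was 2.55-fold lower in GFP+ cells (log2 fold change -1.35, SE 0.09; limma adjusted p = 3.73e-07), and the GFP+ and GFP- values lay far apart. Rbfox2 (chr15:77078990-77307004, minus strand), which many non-neuronal tissues also use, had 14360, 14290 and 14963 normalized reads in GFP+ and 10961, 12057 and 11631 in GFP- libraries. It was the only one of the 10 genes called higher in GFP+ cells, by a log2 fold change of 0.33 (SE 0.08; limma adjusted p = 0.00671). Rbfox3 (chr11:118489762-118911597, minus strand), which encodes the nuclear marker of mature neurons NeuN, had 243, 252 and 246 normalized reads in GFP+ and 341, 367 and 313 in GFP- libraries. It was lower in GFP+ cells, with a log2 fold change of -0.46 (SE 0.11; limma adjusted p = 0.00845), while the summed pan-neuronal markers were higher in GFP+ cells. Per kilobase of exon, Rbfox1 made up 11.05% ± 0.887 of the family in GFP+ and 28.2% ± 0.714 in GFP- cells, and the summed family level was 2055 ± 37.0 in GFP+ and 2058 ± 107 in GFP- cells (normalized reads per kilobase, SD, n = 3 each). The family sums overlapped while the shares did not. In normalized reads, not per kilobase, the ratio of Rbfox3 to Rbfox1 plus Rbfox2 was 0.0159 in GFP+ and 0.0241 in GFP- cells (geometric means). The groups again did not overlap (exact permutation p = 0.1).

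Nova1 (chr12:46694517-46818929, minus strand), which was first known as an autoantigen of a movement disorder and regulates inhibitory synapse exons, had 5916, 4942 and 4896 normalized reads in GFP+ libraries, against 8382, 8250 and 8871 in GFP- libraries. It was lower in GFP+ cells, with a log2 fold change of -0.70 (SE 0.09; limma adjusted p = 9.77e-05). Nova2 (chr7:18925888-18965319, plus strand), its paralog with a similar binding motif, had 384, 442 and 423 normalized reads in GFP+ and 343, 375 and 304 in GFP- libraries. Its values did not overlap, but the log2 fold change of 0.29 (SE 0.11) missed the threshold (limma adjusted p = 0.0774). It passed with the replicate block (limma adjusted p = 0.0111) and without GFP+ library 1 (limma adjusted p = 0.0492). The ratio of Nova2 to Nova1 within a library was 0.0795 in GFP+ and 0.0400 in GFP- cells (geometric means), 1.99 times as high in GFP+ cells with no overlap (exact permutation p = 0.1). A further gene on the other strand, Gm26821, covers 31.7% of the exon bases of Nova2 and was not analysed here.

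Khdrbs3 (chr15:68928420-69101211, plus strand), also called SLM2, which controls a neurexin exon in brain, had 1953, 1918 and 1801 normalized reads in GFP+ libraries, against 3987, 4237 and 4317 in GFP- libraries. It was 2.21-fold lower in GFP+ cells (log2 fold change -1.14, SE 0.07; limma adjusted p = 4.06e-07). Khdrbs2 (chr1:32172714-32658568, plus strand), also called SLM1, which acts on the same class of exons, had 1513, 1373 and 1299 normalized reads in GFP+ and 1246, 1197 and 1275 in GFP- libraries. The lowest GFP+ value stood just above the highest GFP- value, and the log2 fold change of 0.17 (SE 0.08) did not pass (limma adjusted p = 0.158; 0.0344 with the replicate block). In normalized reads, not corrected for exon length, the ratio of Khdrbs2 to Khdrbs3 was 0.737 in GFP+ and 0.297 in GFP- cells (geometric means). It was 2.48 times as high in GFP+ cells (exact permutation p = 0.1). Srrm4 (chr5:116439275-116591817, minus strand), the microexon regulator, had 402, 308 and 352 normalized reads in GFP+ and 333, 312 and 245 in GFP- libraries. These groups overlapped (log2 fold change 0.26, SE 0.14; limma adjusted p = 0.208, and 0.0443 with the replicate block).

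In the time series most of these regulators stood lower in GFP+ cells at birth than at E14, and Rbfox3 alone among the 10 was called higher. For P0 against E14, 8 of the 10 genes passed the threshold, 1 higher and 7 lower, where 55.7% of all 10781 genes were called, 25.1% higher and 30.6% lower. The balance of directions over all genes depends on the scaling: 45.01% of the genes called were higher as deposited, 50.6% with TMM and 51.0% with median-of-ratios scaling. The libraries of the 2 ages did not overlap for these 8 genes, against 65.2% of all genes. For E16 against E14, 3 of 10 passed (Ptbp1 and Rbfox2 lower, Rbfox3 higher), against 33.0% of all genes (15.2% higher and 17.8% lower). Of the genes called there, 46.2% were higher as deposited, 53.9% with TMM and 53.4% with median-of-ratios scaling. For P0 against E16, 6 of 10 passed, all 6 lower, against 33.4% of all genes (16.8% higher and 16.6% lower). The P0 and E16 libraries did not overlap for 7 of the 10 genes, against 44.8% of all genes, and the E16 and E14 libraries for 3 of 10, against 46.4%. The 2 steps share the E16 libraries. Without E16 library 1, the second count was 3, as Ptbp2 (limma adjusted p = 0.0506), Nova1 (0.0551) and Khdrbs2 (0.103) then missed the threshold.

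**Figure D2:**
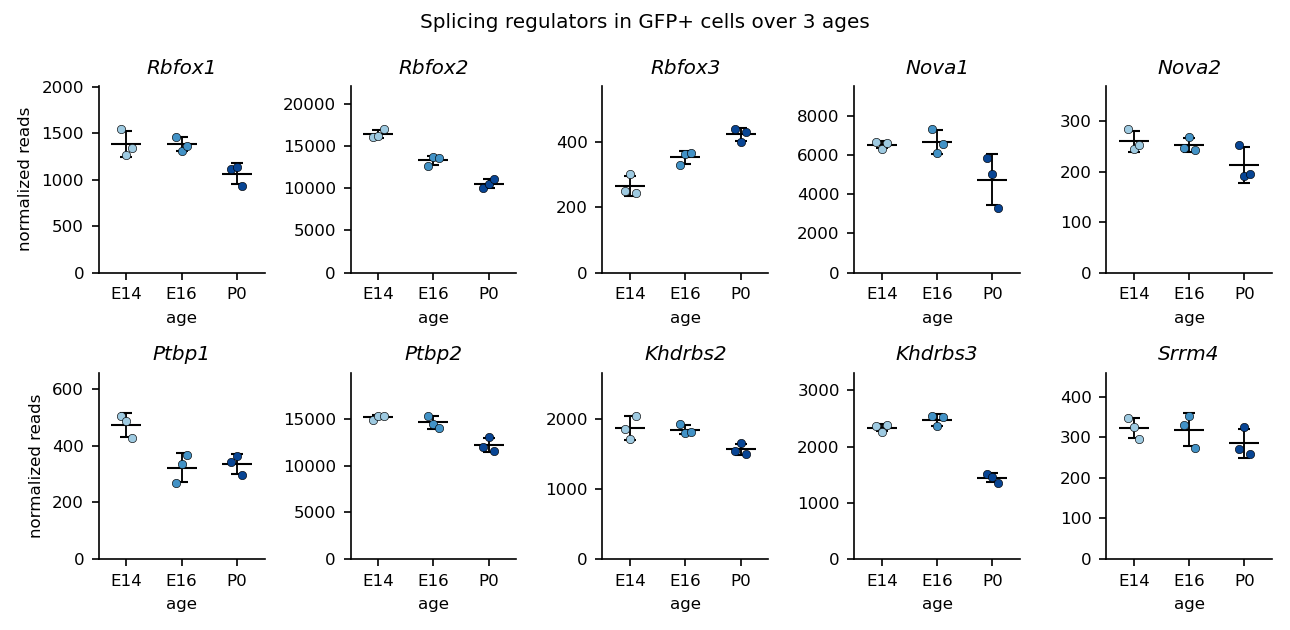
Normalized reads (linear axes starting at 0) of each gene in GFP+ cells at E14, E16 and P0; points are the 3 libraries per age, and bars are the mean and SD. Rbfox3 is higher at each later age, Rbfox2 lower at each later age, and Khdrbs3 is lower at P0.

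Rbfox3 showed the only increase called among the 10 genes. It had 250, 301 and 244 normalized reads in the E14 libraries, 331, 363 and 367 in the E16 libraries and 440.4, 402 and 430 in the P0 libraries. No library of one age overlapped another age. The log2 fold change was 0.42 (SE 0.12; limma adjusted p = 0.0125) for E16 against E14, 0.26 (SE 0.12; limma adjusted p = 0.0941) for P0 against E16 and 0.68 (SE 0.12; limma adjusted p = 0.000195) for P0 against E14. The first of these missed the threshold without E14 library 3 (limma adjusted p = 0.0522). Rbfox3 was the rarest of its family at all 3 ages, at 1.92% ± 0.266, 3.02% ± 0.085 and 4.54% ± 0.301 of the summed family level per kilobase at E14, E16 and P0 (SD, n = 3 each).

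Rbfox2, the most abundant of the family, was lower at each later age. Its libraries had 16106, 16202 and 17026 normalized reads at E14, 12629, 13719 and 13540 at E16 and 9992, 10514 and 11087 at P0. The 3 ages were fully separated. Its log2 fold change was -0.31 (SE 0.07; limma adjusted p = 0.00472) at E16 against E14, -0.34 (SE 0.07; limma adjusted p = 0.00315) at P0 against E16 and -0.64 (SE 0.07; limma adjusted p = 4.38e-06) at P0 against E14. Rbfox1 had 1544, 1269 and 1341 normalized reads at E14, 1461, 1313 and 1366 at E16 and 1120, 1141 and 935 at P0. Its E14 and E16 values overlapped (log2 fold change -0.0016, limma adjusted p = 0.992), and all P0 values lay below them. Its log2 fold change was -0.38 at P0 against E16 (SE 0.10; limma adjusted p = 0.0104) and -0.38 at P0 against E14 (SE 0.10; limma adjusted p = 0.00503). The summed family level was 2381 ± 54.3 normalized reads per kilobase at E14, 2008 ± 58.6 at E16 and 1609 ± 46.4 at P0 (SD, n = 3 each). In normalized reads, not per kilobase, the ratio of Rbfox3 to Rbfox1 plus Rbfox2 was 0.0366 at P0 and 0.0148 at E14 (geometric means). It was 2.47 times as high at P0, with no overlap (exact permutation p = 0.1).

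Both Ptbp genes were lower at birth than at E14. Ptbp1 had 506, 485 and 426 normalized reads at E14, 267, 333 and 367 at E16 and 341, 364 and 295 at P0. Its E16 values lay below all E14 values (log2 fold change -0.56, SE 0.14; limma adjusted p = 0.00579), and its P0 values overlapped those of E16 (0.06, SE 0.14; limma adjusted p = 0.775). Ptbp2 had 14904, 15312 and 15324 normalized reads at E14, 15343, 14439 and 14046 at E16 and 11966, 13086 and 11568 at P0. It overlapped between E14 and E16 (log2 fold change -0.06, SE 0.07; limma adjusted p = 0.589) and was lower at P0 than at E16 (-0.26, SE 0.07; limma adjusted p = 0.0147). The call for P0 against E16 was lost without E16 library 1, and also without P0 library 3 (limma adjusted p = 0.0503). At P0 against E14 the log2 fold changes were -0.50 (SE 0.14; limma adjusted p = 0.00586) for Ptbp1 and -0.32 (SE 0.07; limma adjusted p = 0.00217) for Ptbp2. The ratio of Ptbp2 to Ptbp1 in normalized reads was 29.5, 31.5 and 35.9 at E14. It was 57.5, 43.3 and 38.3 at E16 and 35.1, 35.9 and 39.2 at P0. It overlapped between P0 and E14 (exact permutation p = 0.3), and whether the difference in timing between Ptbp1 and Ptbp2 exceeds the spread was not tested.

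For Nova1 and Nova2 the E16 values overlapped those of E14, and Nova1 was lower at P0. Nova1 had 6652, 6336 and 6623 normalized reads at E14, 7330, 6099 and 6566 at E16 and 5863, 5043 and 3312 at P0. The P0 libraries spread over 27.5% of their mean (coefficient of variation), the widest spread of any of the 10 genes in any group, and library 3 was the lowest. Nova1 was lower at P0 than at E14, with a log2 fold change of -0.50 (SE 0.15; limma adjusted p = 0.0113), and lower than at E16, at -0.53 (SE 0.15; limma adjusted p = 0.0163). Without P0 library 3 these values were -0.27 (limma adjusted p = 0.0282) and -0.29 (0.0321). Nova2 had 285, 246 and 253 normalized reads at E14, 248, 269 and 242 at E16 and 254, 192 and 195 at P0. The P0 library 1 reached into the E14 range, and the log2 fold change of -0.30 (SE 0.14) missed the threshold (limma adjusted p = 0.0781). Without that library it was -0.43 (limma adjusted p = 0.0181). The ratio of Nova2 to Nova1 was 0.0459 at P0 and 0.0399 at E14 (geometric means), and the ages overlapped (exact permutation p = 0.5).

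Khdrbs3 had the lowest log2 fold change of the 10 genes at P0 against E14, and its P0 level stood below that of E16. It had 2368, 2263 and 2383 normalized reads at E14, 2551, 2358 and 2532 at E16 and 1520, 1460 and 1356 at P0. The E14 and E16 values overlapped and every P0 value lay well below them. The log2 fold change was 0.08 (SE 0.07; limma adjusted p = 0.404) for E16 against E14, -0.78 (SE 0.07; limma adjusted p = 7.71e-06) for P0 against E16 and -0.69 (SE 0.07; limma adjusted p = 2.7e-06) for P0 against E14. Of all genes tested, 1.29% had a lower fold change at P0 against E16. Khdrbs2 had 1847, 1704 and 2044 normalized reads at E14, 1921, 1797 and 1812 at E16 and 1544, 1649 and 1495 at P0. At P0 against E16 its log2 fold change was -0.24 (SE 0.08; limma adjusted p = 0.0385), a call that was lost without any 1 of 6 libraries. It was lower, with a log2 fold change of -0.25 at P0 against E14 (SE 0.08; limma adjusted p = 0.0179), which was lost without E14 library 3 (limma adjusted p = 0.0863) or P0 library 3 (0.0568). In normalized reads, not corrected for exon length, the ratio of Khdrbs2 to Khdrbs3 was 1.08 at P0 and 0.796 at E14 (geometric means). It was 1.36 times as high at P0 with no overlap (exact permutation p = 0.1). Per kilobase of exon, Khdrbs2 made up 27.8% ± 1.11 of the sum of both at P0 and 22.1% ± 1.17 at E14 (SD, n = 3 each). Srrm4 had 347, 325 and 296 normalized reads at E14, 329, 353 and 273 at E16 and 271, 326 and 258 at P0. All 3 ages overlapped, and the log2 fold change at P0 against E14 was -0.18 (95% interval -0.47 to 0.11; limma adjusted p = 0.265).

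**Figure D3:**
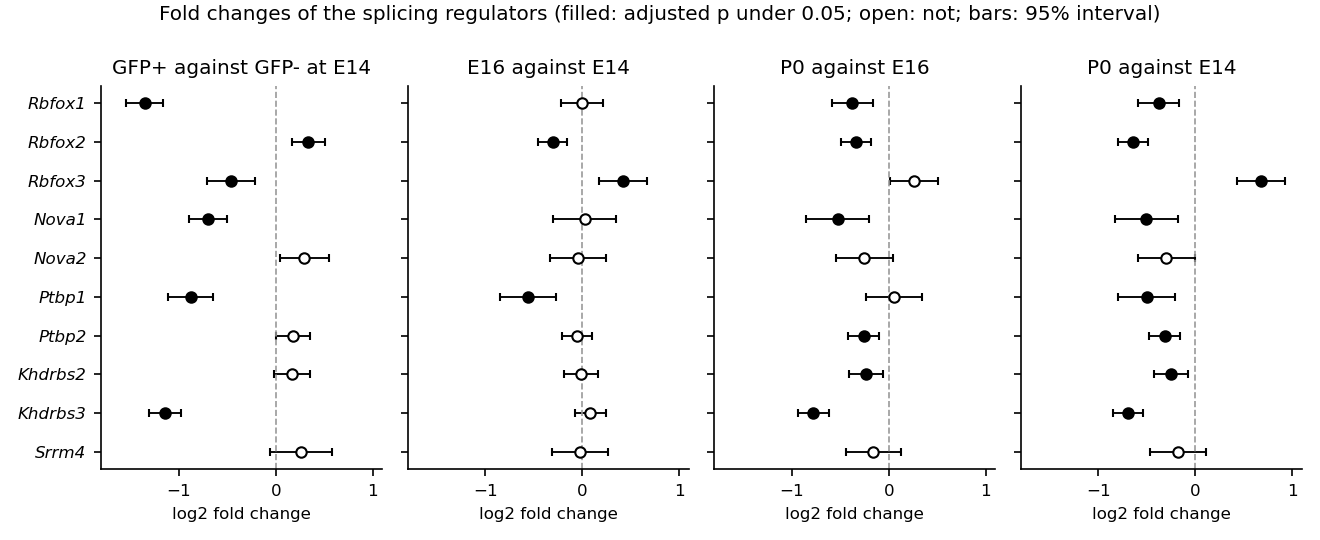
Log2 fold changes of the 10 genes in 4 comparisons, with 95% intervals; filled points have a limma adjusted p under 0.05. Khdrbs3, Rbfox1, Nova1 and Ptbp1 lie left of 0 both in GFP+ against GFP- cells and at P0 against E14, and Rbfox3 lies left of 0 in the sort and right of it with age.

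The contrast of the change after E16 with the change before it tests whether the 2 steps differ. It takes each step as a whole, not scaled for its length in days, so it does not compare rates. The E16 libraries enter both steps. Khdrbs3 was the only one of the 10 genes called, with a difference of -0.86 on the log2 scale (SE 0.13; limma adjusted p = 0.00112), where 13.6% of all genes were called and 5.62% were called in the same direction as Khdrbs3 (lower). Ptbp1 had a difference of 0.61 (SE 0.23; limma adjusted p = 0.096), Nova1 one of -0.55 (limma adjusted p = 0.179) and Rbfox1 one of -0.38 (limma adjusted p = 0.165). The other differences lay between -0.23 and -0.03.

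**Figure D4:**
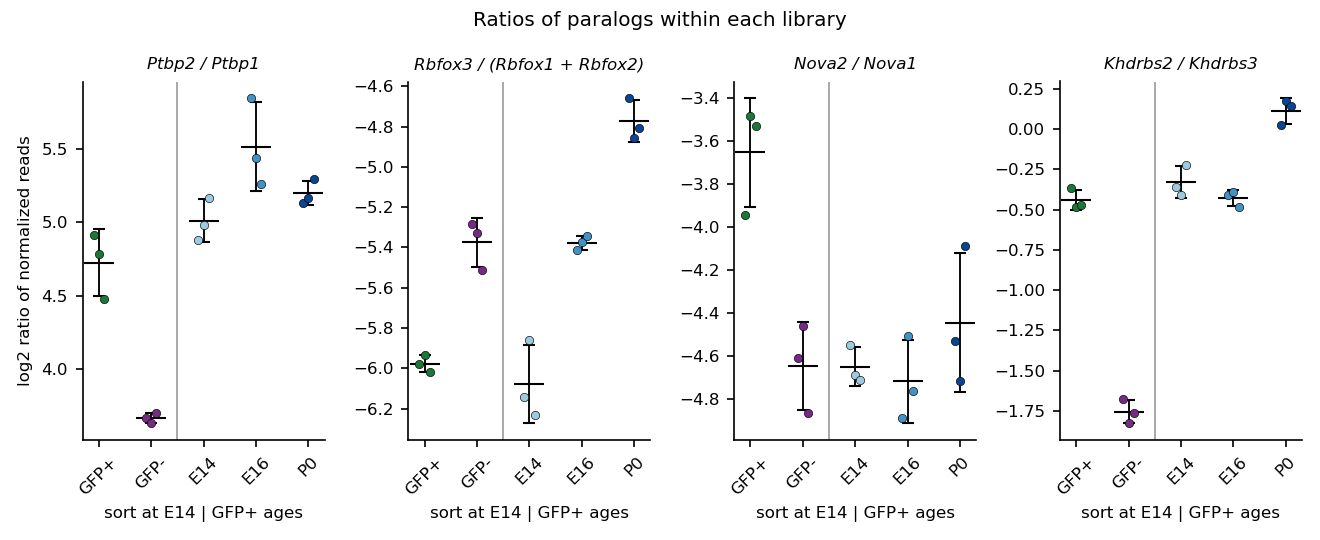
Log2 ratio of paralogs within each library, for the sort at E14 (GFP+, GFP-) and for GFP+ cells at E14, E16 and P0. Ratios are of normalized reads, not corrected for exon length. Points are libraries, and bars are the mean and SD of 3. GFP+ and GFP- libraries are apart in all 4 ratios, and the ratios of Rbfox3 to the other Rbfox genes and of Khdrbs2 to Khdrbs3 are higher at P0 than at E14.

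Of the 8 ratio comparisons, 6 reached the smallest p of 0.1, which was 0.133 after Benjamini-Hochberg adjustment of the exact permutation p over the 8. None can pass 0.05 at this number of libraries. The sorted and time series tables were scaled separately, so only shares within a library can be set side by side. In GFP+ cells at E14, Rbfox2 made up 86.9% ± 0.937 of its family in the sort and 84.9% ± 1.28 in the time series, against 69.0% ± 0.486 in GFP- cells (SD, n = 3 each, per kilobase). Khdrbs2 made up 20.8% ± 0.720 of the Khdrbs2 and Khdrbs3 sum in the sorted GFP+ cells and 22.1% ± 1.17 in the time series at E14, against 9.55% ± 0.440 in GFP- cells. Nova2 was less alike between the GFP+ sets, at 7.73% ± 1.20 in the sort and 4.003% ± 0.243 in the time series, and GFP- cells had 4.03% ± 0.538.

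Ordered by normalized reads per kilobase of exon, the 10 genes spanned a wide range in every group. Merged exons of all annotated transcripts set the length, and the order may depend on that choice. They came to 9175 bases for Ptbp2, 8140 for Rbfox2, 3662 for Khdrbs3 and 8747 for Nova1. The protein-coding transcripts held 4973, 7782, 1938 and 7633 distinct stretches of 50 bases, in the same order of genes. An order by the length of coding transcripts was not computed. In GFP+ cells of the sort, Rbfox2 (1786 ± 45.4) stood first and Ptbp2 (1269 ± 84.5) second, followed by Nova1 (600.4 ± 65.9), Khdrbs3 (516 ± 21.7), Rbfox1 (227 ± 16.5), Khdrbs2 (136 ± 10.5), Ptbp1 (93.2 ± 11.6), Nova2 (49.8 ± 3.54), Rbfox3 (42.4 ± 0.769) and Srrm4 (40.8 ± 5.42; SD, n = 3 each). Srrm4 overlapped Rbfox3 and Nova2 there, and no other genes overlapped. In GFP- cells Khdrbs3 came second at 1142 ± 47.1, overlapping Ptbp2 at 1121 ± 45.7, and Ptbp1 (171 ± 7.79) stood above Khdrbs2 (120.4 ± 3.83). With age, Rbfox2 led at E14 (2020.2 ± 62.1 against 1654 ± 26.0 for Ptbp2, no overlap). The pair overlapped at E16 and at P0, where Ptbp2 had 1330.4 ± 85.8 and Rbfox2 1294 ± 67.3. Rbfox3 and Ptbp1 also overlapped at E16 and P0, and Nova2 came last at all 3 ages (25.5 ± 4.17 at P0), where it overlapped Srrm4 at E16 and P0.

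The values of Ptbp1 carry a limit of annotation. Of its exon bases, 20.7% lie under genes on the other strand (Plppr3, E130317F20Rik and Gm17134), and no source used here says whether reads were counted by strand, so reads there cannot be told apart. Of all stretches of 50 bases in its protein-coding transcripts, 24.2% also occur in another annotated gene, the overlapping genes and Gm4900 among them. In the sort these neighbours had log2 fold changes of the opposite sign to that of Ptbp1. Plppr3, a membrane protein of the nervous system, was higher in GFP+ cells by a log2 fold change of 0.60 (SE 0.08; limma adjusted p = 0.000147), and E130317F20Rik had 0.42 (SE 0.15; limma adjusted p = 0.0587). With age the called changes had the same sign. At E16 against E14 the log2 fold change was -0.53 (SE 0.15; limma adjusted p = 0.0156) for E130317F20Rik and -0.38 (SE 0.07; limma adjusted p = 0.00153) for Plppr3, beside -0.56 for Ptbp1. At P0 against E16 the values were near 0, at 0.03 and -0.02, beside 0.06 for Ptbp1. At P0 against E14 they were -0.50 (limma adjusted p = 0.0127) and -0.40 (limma adjusted p = 0.000464), beside -0.50 for Ptbp1. The part of these neighbours in the level of Ptbp1 was not tested.

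**Figure D5:**
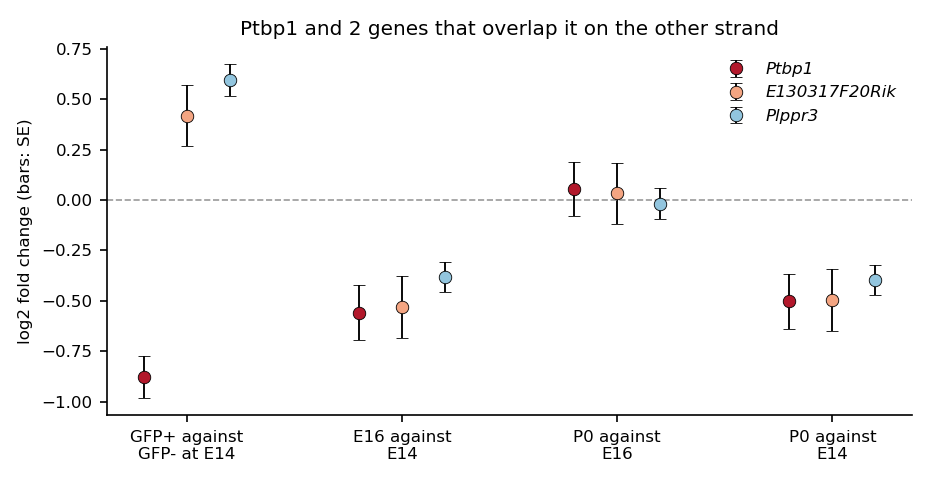
Log2 fold changes (bars, SE) of Ptbp1 and of E130317F20Rik and Plppr3, which overlap it on the other strand, in 4 comparisons. Ptbp1 lies on the opposite side of 0 from both neighbours in GFP+ against GFP- cells, and near both in the comparisons of ages.

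A list of 10 genes was examined around miR-124 and the repressor REST, which keeps neuronal genes silent outside neurons. In the sort 9 were tested, 2 higher and 4 lower in GFP+ cells, where 12.7% of all genes were higher and 18.0% lower, with a median log2 fold change of -0.11 against 0.02 over all genes tested. Rest itself averaged 131 ± 17.4 normalized reads in GFP+ cells and 664 ± 48.9 in GFP- cells (SD, n = 3 each; log2 fold change -2.34, limma adjusted p = 9.22e-08). Ctdsp1, a phosphatase that works with REST, and the miR-9 host Mir9-3hg had log2 fold changes of -1.76 and -1.40. The miR-124 host transcript Mir124a-1hg was higher by 0.55 (SE 0.18; limma adjusted p = 0.0427), as was Rcor2, a corepressor, by 0.30, while Mir124-2hg, the more abundant host, had 3871 ± 738 normalized reads in GFP+ cells and 3856 ± 461 in GFP- cells. Of 6 tested in the time series, 4 were lower at P0 than at E14 and 0 higher, where 30.6% of all genes were lower and 25.1% higher, with a median of -0.69 against -0.05 over all genes tested. Rcor2, Mir124-2hg and Ctdsp2, another such phosphatase, were lower by log2 fold changes of -1.39, -0.87 and -0.86. For E16 against E14 4 of the 6 were lower (all genes 17.8%), and for P0 against E16 1 was (all genes 16.6%). Host transcripts were counted here, not the mature microRNAs.

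Other splicing regulators gave a mixed picture. Of 36 listed, 32 were tested in the sort, and 11 were higher and 3 lower in GFP+ cells, where 12.7% of all genes were higher and 18.0% lower (median 0.21 against 0.02 over all genes). The highest fold changes were those of Adarb2 (log2 fold change 1.61), a relative of the RNA editing enzymes, Rbms3 (1.02) and Elavl2 (0.88), a neuronal RNA-binding protein. Qk, the glial regulator Quaking, was the lowest at -2.65 (SE 0.11; limma adjusted p = 1.61e-08), followed by Rbm24 (-0.87) and Raver2 (-0.72), a partner of the Ptbp proteins. At P0 against E14, 7 of 30 tested were higher and 11 lower, close to the shares over all genes of 25.1% higher and 30.6% lower (median -0.16 against -0.05 over all genes). Qk (0.62), Msi2 (0.55) and the RNA editing enzyme Adarb1 (0.55) had the highest fold changes, and Rbm10 (-1.23), Msi1 (-0.99), an RNA-binding protein of neural progenitors, and Elavl2 (-0.61) the lowest. For E16 against E14 3 of the 30 were higher and 10 lower (all genes 15.2% and 17.8%), and for P0 against E16 6 were higher and 7 lower (all genes 16.8% and 16.6%).

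Of the 7 partners of Rbfox in its large nuclear assembly, those that passed the test had 1 direction within each comparison. In the sort 3 of 7 were higher and 0 lower in GFP+ cells, where 12.7% of all genes were higher and 18.0% lower (among them Hnrnpul2 at 0.30 and Ddx5 at 0.29 on the log2 scale; median of the list 0.26). At P0 against E14, 6 of 7 were lower and 0 higher, where 30.6% of all genes were lower and 25.1% higher, with a median of -0.48 against -0.05 over all genes tested. Hnrnpc, which coats nascent transcripts, stood at 5551 ± 600 normalized reads at P0 and 12125 ± 2593 at E14 (SD, n = 3 each; log2 fold change -1.11, SE 0.13; limma adjusted p = 5.53e-06). Hnrnpm and Hnrnph1, both known to act with Rbfox, were lower by -0.72 and -0.70. Of the 7, 4 were lower at E16 against E14 and 2 at P0 against E16, with 0 higher in both, where 17.8% and 16.6% of all genes were lower.

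Genes with exons known to be regulated by these proteins were split in both experiments. In the sort 6 of 20 tested were higher and 5 lower in GFP+ cells, where 12.7% of all genes were higher and 18.0% lower (median 0.02, as over all genes). Among those higher were the neurexin Nrxn3 (log2 fold change 1.74) and the axon guidance receptor Dcc (0.57), and the glycine receptor subunit Glra2 (-1.65), Actn1 (-1.47) and Flna (-0.47) were the lowest. At P0 against E14, 9 of 19 were higher and 4 lower, where 25.1% of all genes were higher and 30.6% lower (median 0.09 against -0.05 over all genes). Glra2 (1.63), the synaptic protein Snap25 (1.44) and Shtn1 (0.95) were highest, and among those lower were the kinase Src (-0.61) and Dab1 (-0.46). For E16 against E14 6 were higher and 5 lower (all genes 15.2% and 17.8%), and for P0 against E16 4 were higher and 1 lower (all genes 16.8% and 16.6%). These are gene totals and say nothing of which exons were used.

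Markers of other cells in the time series stand beside the comparisons of ages. Sums of the 10 dopamine neuron markers were 110332 to 118105 normalized reads at E14, 167677 to 175972 at E16 and 228825 to 287619 at P0. Of these 10 markers, 3 were called higher and 6 lower at P0 against E14 (median log2 fold change -0.67), and 2 higher and 7 lower at E16 against E14 (median -0.39). The dopamine transporter gene Slc6a3 averaged 10187 ± 858 normalized reads at E14, 21331 ± 2495 at E16 and 30141 ± 11068 at P0 (SD, n = 3 each). In the same order of ages, Th averaged 9381 ± 360, 8927 ± 1781 and 10419 ± 1423. Pitx3 was lower at each later age, at 818 ± 59.0, 556 ± 81.3 and 381 ± 19.1. Sums of the 8 pan-neuronal markers were 199039 to 214428, 208959 to 218790 and 187190 to 201711. Sums of the 3 radial glia and progenitor markers in the table were 4047 to 4306 at E14, 2737 to 3128 at E16 and 2202 to 4403 at P0. Of these 3, 1 was called higher and 2 lower at P0 against E14 (median log2 fold change -1.30). The 1 astrocyte marker in the table had 8053 to 9334 at E14, 7207 to 8119 at E16 and 6045 to 6680 at P0, the 2 oligodendrocyte lineage markers 471 to 509, 522 to 587 and 589 to 733, and the 1 dividing cell marker 979 to 1065, 914 to 1024 and 787 to 918. Sums of 4 of 9 markers of neurons with other transmitters were 8571 to 9210 at E14, 10377 to 11518 at E16 and 8292 to 13294 at P0, so the E16 libraries lay above those of E14. Of these 4, 1 was called higher and 0 lower at E16 against E14, and 1 higher and 2 lower at P0 against E14. The listed microglia, blood vessel and erythroid markers were all absent from the time series table, which leaves out genes of low abundance. The part of any of these in the changes with age was not tested.

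The genes most like Rbfox3 and Khdrbs3, the members with the highest and the lowest log2 fold change at P0 against E14, over the 9 time series libraries are given as a description. These libraries share the 3 ages and their scaling. Slc48a1, Aifm2 and Elfn1 followed Rbfox3 with Pearson r of 0.979, 0.975 and 0.974. Plk2, Utp4 and Tmeff2 followed Khdrbs3 with r of 0.985, 0.982 and 0.981.

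Circular RNAs (circRNAs), loops of RNA recognised by reads that span a junction joining an exon end back to an upstream exon start, were listed for 7 of the 10 genes in the time series and for 4 in the sorted table, and all were rare. In the time series 19 circRNAs named one of the 10 genes as host. Together they held 4 to 44 reads per library, of 11196 to 33061 circRNA reads. By age these totals were 24760 to 32905 at E14, 22231 to 33061 at E16 and 11196 to 18097 at P0. The reads per circle given below are not scaled for the lower totals at P0. Only 4 of the 19 circRNAs reached a mean of 2 normalized reads and were tested, and 0 of them passed in any comparison by limma. Among all 1630 circRNAs tested, 0.00% were called for E16 against E14 (83 at an unadjusted p under 0.05), 0.245% for P0 against E16 (188) and 3.19% for P0 against E14 (309). The most abundant, circ_01090_Khdrbs3, had 4, 7 and 7 reads at E14, 4, 0 and 8 at E16 and 0, 4 and 0 at P0. The 2 circles of Khdrbs3 and the 1 of Ptbp2 had log2 fold changes of -1.53, -1.75 and -1.98 at P0 against E14, with SE of 1.04, 1.01 and 0.98 (limma adjusted p = 0.435, 0.357 and 0.281). The values of -1.75 and -1.98 belong to circles with no read in any P0 library, so they depend on the pseudocount and are no bound. The circle circ_01263_Ptbp2 had 4, 6 and 2 reads at E14, 0, 6 and 10 at E16 and none in any P0 library, and circ_01608_Nova2 had 0, 3 and 0 at E14, 5, 0 and 0 at E16 and 10, 0 and 2 at P0. The lone circle of Khdrbs2, circ_02372_Khdrbs2, was seen in 1 library, with 12 reads at E16. Relative to their host genes 0 of the 4 passed by limma at P0 against E14, and 0.706% of all 1558 ratios did (256 at an unadjusted p under 0.05). At this depth a difference of the size seen for the host Khdrbs3 was not detectable in its circles. Of the circRNAs listed for the sort, 12 named one of these genes, the GFP- libraries held 5, 31 and 25 of their reads, and the authors' deposited table gave an adjusted p to 1 of them, circ_00439_Ptbp2 (log2 fold change 0.40, SE 0.95, adjusted p = 0.987), which was not called, where 1.15% of circRNAs with an adjusted p were.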

How the data were processed

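RNA depleted of ribosomal RNA was sequenced from 15 samples. The authors deposited normalized reads, a signal value for each gene and circRNA in which every read of a library has the same weight. Trimming with Trim Galore, alignment with TopHat2 and use of DESeq2 are named in the submitters' processing notes, which give no versions and list both GRCm38 and mm10. The read counter, the circRNA caller and the use of strand are not given in the sources used here. Tables of log2 fold changes and p-values were also deposited by the authors. Values of each library were whole multiples of a constant step (100% within 0.1 of a whole read), and the reads recovered for the sorted genes were also tested with edgeR 4.0.16 and DESeq2 1.42.0, which called 5541 and 5502 genes. The time series gene table held no gene below 38 reads, so its totals cover a part of each library. Reads carry no molecular identifiers, and the number of libraries limits the precision.

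The test was limma-trend with two-sided p-values (limma 3.58.1, R 4.3.3), applied to log2(normalized reads + 1), a scale that understates the change of low genes. Means under 5 normalized reads (genes) or 2 (circRNAs) were left out, p-values were adjusted over the whole table by Benjamini-Hochberg, and the threshold was 0.05. All 10 genes passed the filter in both tables. The sort was fitted alone and the 3 ages in a single fit, and the fits were tested on simulated data. There the fit of the sort recovered 48.5% of 1.5-fold and 91.4% of 3-fold changes, and 7.69% of its calls were false. For P0 against E14 these values were 90.0%, 100% and 3.55% for genes and 10.9%, 57.8% and 4.62% for circRNAs. The simulated reads had the same fixed dispersion for every gene and circRNA, which was not estimated from these data. The rates hold for that spread only, and circRNAs that spread more between replicates were not simulated. Ratios of paralogs were taken from normalized reads, not corrected for exon length, and compared by exact permutation of libraries. Levels and shares per kilobase used merged exons of all transcripts of a gene, coding or not, in GENCODE M21 on GRCm38.

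Library numbers of the sort are those of the deposited columns, which differ from the numbers in the labels' descriptions. Deviations from the group means correlated at 0.645, 0.357 and 0.234 between same-numbered GFP+ and GFP- columns, so the sort is also given with these numbers as a block, although GFP- column 3 correlated more with GFP+ column 2 (0.395). The 10 genes, the lists and the tests were chosen with earlier results of these data known. Named from each list were up to 3 genes per direction with the largest change past the threshold (some are not reported here), and from the circRNAs those past the threshold and the 5 of highest mean. Mir124-2hg in the sort and the neighbours of Ptbp1 were named after their values were seen. Alternatives were a pseudocount of 10, no filter, TMM and median-of-ratios scaling, the replicate block, only the 2 ages compared, each library left out, other tools and the authors' tables.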

Additional observations from a re-analysis of the deposited data

Results flagged for a closer look

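Khdrbs3 is given here because its change after E16 differed from its change before E16 by a test of the difference itself. The steps were not scaled for their length in days. The difference was -0.86 on the log2 scale (SE 0.13; limma adjusted p = 0.00112), made up of -0.78 for P0 against E16 and 0.08 for E16 against E14. All 3 P0 libraries lay below all 6 earlier libraries. Over the alternatives tried, the difference lay between -0.94 and -0.82 and its adjusted p between 0.00109 and 0.0119.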

How the results depend on the processing

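No called value reversed its direction under the alternatives run. Of values that were not called, 20 changed sign, to between -0.07 and 0.08, among them Rbfox1, Khdrbs2 and Srrm4 at E16 against E14 with TMM and median-of-ratios scaling, where these scalings moved the median of all genes by 0.03. Over the 10 genes and all alternatives, 742 single-gene values kept their side of the threshold, 12 lost the call and 6 gained it. With the replicate block the sort gave 10 of the 10 genes and 8466 genes in all, against 5599 without it. Deviations of time series libraries of the same number correlated at r from -0.113 to 0.245, and those of different numbers at -0.300 to 0.149. There the block gave 3, 6 and 8 of the 10 genes for E16 against E14, P0 against E16 and P0 against E14, as without it. Leaving out 1 library gave 3 to 6 of the 10 genes for P0 against E16, 7 to 9 for P0 against E14, 2 to 3 for E16 against E14 and 6 to 7 in the sort. The fewest for P0 against E16 came without E16 library 1. Khdrbs2 missed that threshold without any one of 6 libraries (adjusted p from 0.0508 to 0.103). For the change after against before E16, 1468 genes were called, and 625 to 1801 with 1 library left out (625 without E16 library 3, 887 without P0 library 2, 976 without E14 library 2). Of the circRNAs, 0 were called for E16 against E14, 1 with a pseudocount of 10, 6 with no filter and 0 to 1 with 1 library left out. For P0 against E16, 4 were called, 13 with a pseudocount of 10, 23 with no filter, 14 with TMM, 1 with only the 2 ages, 2 in the authors' deposited table and 0 to 6 with 1 library left out. For P0 against E14, 52 were called, 92 with a pseudocount of 10, 14 with only the 2 ages and 9 to 61 with 1 library left out. Of the circRNA to host ratios, 11 were called, 170 with a pseudocount of 10, 2 with the replicate block and 1 to 15 with 1 library left out. The cause of these differences was not tested. Depth limits the circRNAs, which had few reads per library.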
